A study of Homo sapiens with 5 samples.

Results

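Single cells of SW480, an established human colorectal cancer cell line, were sorted from tumors grown in zebrafish larvae, and 57 of the 348 wells analysed at 4 days post injection (4 dpi) held 25% or more mitochondrial RNA. These 57 high-mitochondrial wells, 26 on the plate of library 10 and 31 on the plate of library 11, are described here against the 291 passing wells of the same plates, 131 and 160, which held less than 25%. A well counted when more than 2000 genes were detected in it, and the whole series held 886 such wells. The mitochondrial share is the share of unique molecular identifiers (UMIs, which count captured RNA molecules) on genes of the mitochondrial genome, and the wells were chosen by it, so that it is given as a description and not tested. All cells were GFP-transfected SW480, no group received a treatment, and the labels give no genotype of the host. As limits of the model, the cells came from many dissected tumors that were pooled and digested with liberase, and only cells that excluded DAPI were sorted, so that a plate samples a pool of animals that had passed a gate for live cells. Libraries 6, 7 and 8 were from 1 dpi and libraries 10 and 11 from 4 dpi, with 1 plate of 384 wells in each library.

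The mitochondrial genome codes for some subunits of the respiratory chain and ATP synthase and for its own ribosomal RNAs and transfer RNAs, and its transcripts stay inside the organelle. Messenger RNAs of nuclear genes are found mostly in the cytoplasm, whereas some long non-coding RNAs, of which MALAT1 and NEAT1 are the best known, are kept in the nucleus. The mitochondrial share of a cell is used as a quality measure in single-cell work because it is high when cytoplasmic RNA is low and also when a cell holds many mitochondria. The UMIs of a well do not tell these apart.

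The high-mitochondrial wells held more mitochondrial and fewer other UMIs than the passing wells. Their mitochondrial share had a median of 44.3% (range 25.6% to 66.8%) in library 10 and 43.1% (25.3% to 77.1%) in library 11, against medians of 13% and 12.4% in the passing wells. The passing wells nearest to the limit were at 24.3% and 24.8%. A well of high share held a median of 6936 and 5081 non-mitochondrial UMIs and of 2985.5 and 2677 genes, and a passing well held 22274 and 16672 UMIs and 5541 and 4996.5 genes. The ERCC spike-ins, synthetic RNAs added in the same amount to each well, had medians of 264 and 453 UMIs in the high-mitochondrial wells and 250 and 442.5 in the passing wells. Per spike-in UMI, the summed high-mitochondrial wells held 1.89 and 1.74 times the mitochondrial UMIs of the summed passing wells and 0.322 and 0.289 times their non-mitochondrial UMIs. The UMIs of a well entered the choice of wells and the spike-ins did not, and these values are given with no test.

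**Figure D1:**
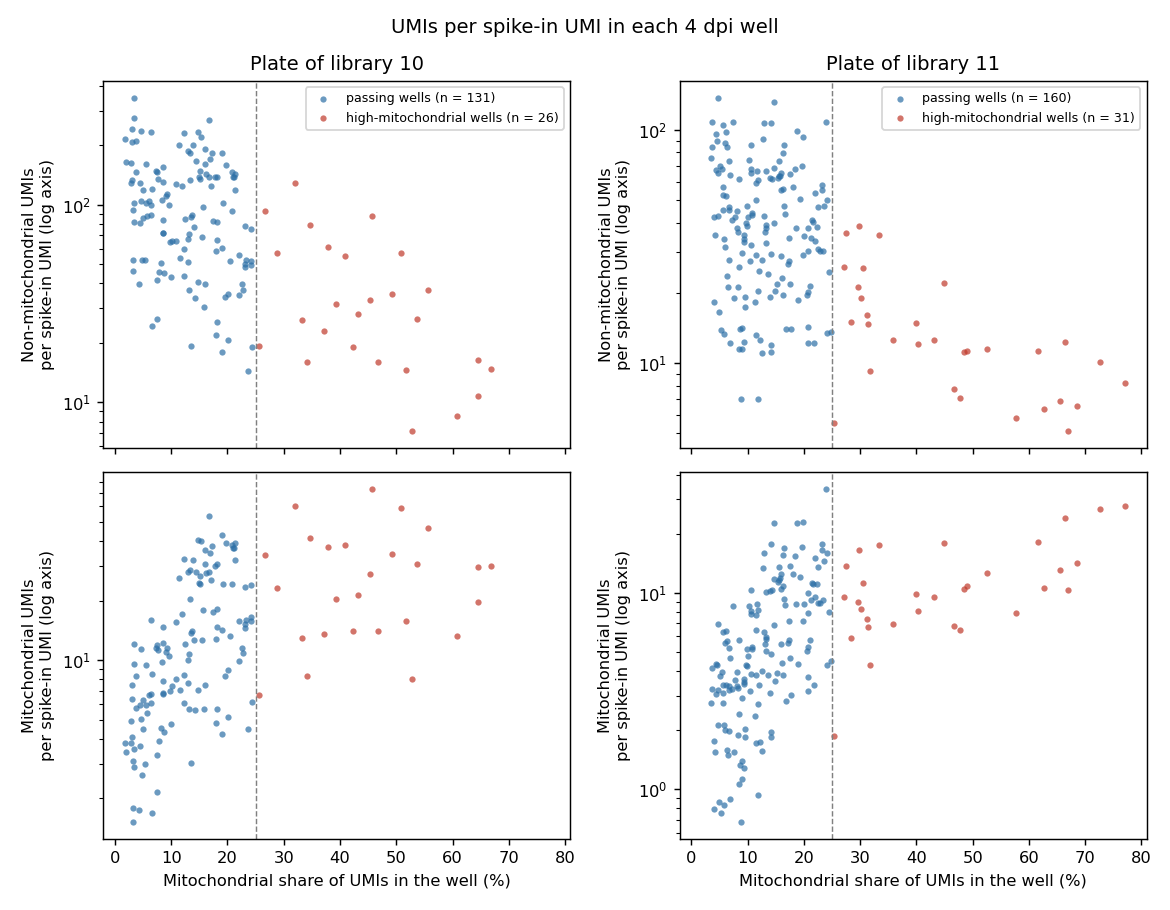
Each point is a 4 dpi well with more than 2000 genes, with its mitochondrial share (%) on the horizontal axis and, on log axes, its non-mitochondrial (top) and mitochondrial (bottom) UMIs per spike-in UMI, for library 10 (left) and library 11 (right). Red points are the 26 and 31 high-mitochondrial wells to the right of the dashed line at 25%, blue points the 131 and 160 passing wells. The red points sit lower than most blue points in the top panels and among the higher blue points in the bottom panels.

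Within the mitochondrial UMIs the makeup was similar in both groups. The 16S ribosomal RNA MT-RNR2 took 19.1% and 20.5% of the mitochondrial UMIs of the high-mitochondrial wells and 16.4% and 17.1% of those of the passing wells. MT-ND1, a subunit of complex I, took 13.7% and 13.8% against 15.4% and 15.3%, and MT-CO1, a subunit of complex IV, took 7.20% and 7.29% against 5.61% and 6.28%. The shift was in the same direction on both plates for each of these 3 genes, and none of them changed its share by more than 1.5 times.

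The high-mitochondrial wells were epithelial by their markers. Of 14 epithelial and colorectal markers 13 were in the files, and their summed level was 5792 and 5504 UMIs per 1000000 non-mitochondrial UMIs (CPM) in the high-mitochondrial wells and 5580 and 5828 CPM in the passing wells. KRT8, a keratin of simple epithelia, was at 2695 and 2695 CPM against 2173 and 2174 CPM, and EPCAM, an epithelial adhesion molecule, at 1654 and 1081 CPM against 1755 and 1533 CPM. Neither passed the test described below (adjusted p = 0.0642 and 0.15). Of the 9 markers of this list that were tested 0 were called higher and 1 lower, the tight junction gene CLDN4 (log2 ratio -1.05, adjusted p = 0.0105). Markers of macrophages, neutrophils, other leukocytes, erythroid cells and endothelium had between 1 and 3 UMIs per list in each sum of high-mitochondrial wells. That is 4.39 to 15.2 CPM per list, against 2.00 to 8.00 CPM in the passing wells. The defining markers CD3E, MPEG1, ELANE and CDH5 had none or were not in the files. Because reads were mapped to the human transcriptome, these counts cannot show whether cells of the zebrafish host were present. Fibroblast markers summed to 21.9 and 35.4 CPM in the high-mitochondrial wells against 50.6 and 37.7 CPM.

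One small group of genes outside the mitochondrial genome shares sequence with it, and is shown first because its counts follow the measure that chose the wells. The MTRNR2L genes are nuclear copies of the 16S ribosomal RNA, and of 23 nuclear copies of mitochondrial genes listed, MTRNR2L1 and MTRNR2L8 had enough UMIs to be tested. MTRNR2L1 lies on chromosome 17 (hg38, chr17:22523415-22524663, plus strand) and MTRNR2L8 on chromosome 11 (chr11:10507887-10509176, minus strand). A stretch of 30 bases of the mitochondrial 16S gene is shown with the matching stretch of each copy, with the base that differs in capitals (C21T and T9C, counted from 1 at the 5′ end of the stretch).
MT-RNR2, chrM:3073-3102, plus strand: cagaccggagtaatccaggtCggtttctat
MTRNR2L1, chr17:22524502-22524531, plus strand: cagaccggagtaatccaggtTggtttctat
MT-RNR2, chrM:2659-2688, plus strand: cttactttTaaccagtgaaattgacctgcc
MTRNR2L8, chr11:10508171-10508200, minus strand: cttactttCaaccagtgaaattgacctgcc
The reads that were mapped had 60 bases. Of the 1500 windows of 60 bases in the 1559 bases of MT-RNR2, 101 (6.73%) matched MTRNR2L1 with at most 2 mismatches and 373 (24.9%) matched MTRNR2L8. Both copies rose in the high-mitochondrial wells. MTRNR2L1 had 121 and 115 UMIs in the high-mitochondrial wells and 225 and 264 in the passing wells, or 534 and 568 CPM against 65.4 and 79.7 CPM (log2 ratio 2.93 ± 0.17, adjusted p = 1.84e-08). Per 1000 UMIs of MT-RNR2, however, it was at 3.59 and 3.34 UMIs in the high-mitochondrial wells and at 2.98 and 3.29 in the passing wells. MTRNR2L8, with 5 and 2 UMIs against 11 and 6, was at 0.149 and 0.0581 per 1000 against 0.145 and 0.0747. With so few UMIs it passed the filter on low counts more readily where it was high. The part of this in its call was not tested. The 2 genes were left out of the ranking of genes that follows.

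Non-mitochondrial genes were compared after scaling to the non-mitochondrial UMIs, so that the mitochondrial share itself did not enter. UMIs were summed over the wells of each group and plate, which gave 4 sums, and high-mitochondrial and passing wells were compared within the plate with edgeR's quasi-likelihood test (Benjamini-Hochberg adjustment over 11034 genes, threshold 0.05). Wells are not replicates here, so that n is 2 plates. Because the labels do not say whether both plates hold cells of separate pools, the p-values measure the spread between plates, which may be technical. Of the genes tested 10.3% were called, with 614 (5.56%) higher and 527 (4.78%) lower in the high-mitochondrial wells. Counts of called members of a gene list below are to be read beside these shares. A level of a gene is its summed UMIs per 1000000 after TMM scaling, a log2 ratio is high-mitochondrial over passing wells, and the error is the standard error of the fit. Values of a pair are given in the order of libraries 10 and 11. These levels are relative to the other RNA of the same wells: on the scale of spike-in UMIs the median of all genes moved by -1.68 (log2), and 9009 genes were called lower and 21 higher. Of the 614 genes called higher, 201 had a log2 ratio above 0 on that scale and 21 were called higher there too, so that most genes called higher below had fallen less than the others.

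The largest rises were in genes with few UMIs. CLEC19A, a C-type lectin gene, was at 70.6 and 74 CPM in the high-mitochondrial wells and 3.78 and 6.64 CPM in the passing wells (log2 ratio 3.80 ± 0.45), on 16 and 15 against 13 and 22 UMIs. EMC3-AS1, a non-coding RNA antisense to EMC3, was at 52.9 and 88.8 CPM against 7.27 and 7.55 CPM (3.23 ± 0.43). DCD, which codes for the antimicrobial peptide dermcidin, had 9 and 13 UMIs against 14 and 28 (3.06 ± 0.48). C21orf58 (2.77 ± 0.29), KIAA0754 (2.72 ± 0.64), USP49 (2.61 ± 0.47), ZNF662 (2.58 ± 0.54), PRAP1 (2.45 ± 0.45) and LINC00276 (2.45 ± 0.59) followed on the log2 scale. Moving alike on both plates was part of the rule that named these 9 genes, and LINC00276 had only 4 and 9 UMIs in the high-mitochondrial wells. Genes of few UMIs also pass the filter on low counts more readily where they are high. The part of this in the ranking was not tested. The sources used here do not say whether the counting used strand, and reads of EMC3-AS1 and of the gene on the opposite strand may not be told apart.

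RNA45S5, the precursor of the cytosolic ribosomal RNAs, was the most abundant of the largest rises. It was at 1756 and 2251 CPM in the high-mitochondrial wells and 278 and 440.0 CPM in the passing wells (log2 ratio 2.50 ± 0.12, adjusted p = 3.78e-09). In library 10 a single well held 187 of its 398 UMIs, and in library 11 the leading well held 53 of 456. Without these 2 wells, an alternative added after the data had been seen, the summed level fell from 1746 to 959.5 UMIs per 1000000 in library 10 and from 2307 to 2160.1 in library 11, before TMM scaling, and the log2 ratio was 2.04. The record also holds the sequence of the mature ribosomal RNAs, so that its UMIs do not separate precursor from mature RNA.

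The 10 genes of the largest fitted falls all had no UMI in the high-mitochondrial wells, so that only a bound on the fold can be given, set by 3 counts over both plates, and the counts do not show that they fell further than genes with UMIs in both groups. CTH, the cystathionine gamma-lyase that makes cysteine, had 146 and 102 UMIs in the passing wells and was at least 5.16-fold lower in the high-mitochondrial wells. C11orf96 was at least 4.95-fold lower, CITED2, a regulator of the coactivators CBP and p300, at least 4.6-fold lower, and KLF7, a zinc finger transcription factor, at least 4.35-fold lower. GULP1, an adaptor of phagocytosis of dying cells, was at least 4.31-fold lower and ALOXE3, an epidermal lipoxygenase, at least 3.79-fold lower. The bounds of LSMEM1, MCC, CABYR and CIDEC were 3.66, 3.39, 3.06 and 2.79-fold. Of the tested genes 96 had no UMI in the high-mitochondrial wells and 22 of them were called lower.

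MALAT1, a nuclear long non-coding RNA found at splicing speckles, was the most abundant gene among those that rose. It was at 12289 and 14082 CPM in the high-mitochondrial wells and 3850.2 and 3504 CPM in the passing wells (log2 ratio 1.84 ± 0.10, adjusted p = 1.84e-08). Over single wells the median was 114 and 106 UMIs per 10000 in the high-mitochondrial wells (range 5.36 to 689 and 4.80 to 560.2) and 21.1 and 23.5 in the passing wells (0 to 372 and 0 to 232), so that wells of both groups overlapped. In absolute counts MALAT1 was close in both groups, at 107 and 92.0 UMIs per high-mitochondrial well and 101 and 72.5 UMIs per passing well. EEF1A1, a translation elongation factor with a cytoplasmic messenger RNA, was at 69.3 and 36.0 UMIs per high-mitochondrial well and 217 and 166 per passing well. On the scale of spike-in UMIs the log2 ratio of MALAT1 was 0.16 (adjusted p = 0.458). Wells of 500 or fewer genes, which were not analysed otherwise, held 0.772 and 1.12 UMIs of MALAT1 per well.

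The level of MALAT1 did not increase across the bins of passing wells, and in library 10 the bin just above the limit was close to them. In passing wells under 10%, of 10% to 15%, of 15% to 20% and of 20% to 25% mitochondrial share, its summed level was between 3230 and 4310 CPM in library 10 and between 2911 and 3740 CPM in library 11. In wells of 25% to 35% it was 4428 and 8156 CPM, in wells of 35% to 50% it was 13650 and 26460 CPM, and in wells of 50% or more it was 23313 and 14438 CPM. RNA45S5 was already higher in passing wells nearer to the limit, with 127 and 188 CPM in wells under 10%, 606 and 586 CPM in wells of 20% to 25%, 3119 and 2790 CPM in wells of 35% to 50% and 1274 and 4009 CPM in wells of 50% or more. The leading well of library 10 lay in the bin of 35% to 50% and held 187 of its 250 UMIs, without which that bin was at 873 CPM, and the same bin of library 11 was at 2270.3 CPM without its leading well. These levels are sums over 7 to 60 wells a bin and were not tested.

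**Figure D2:**
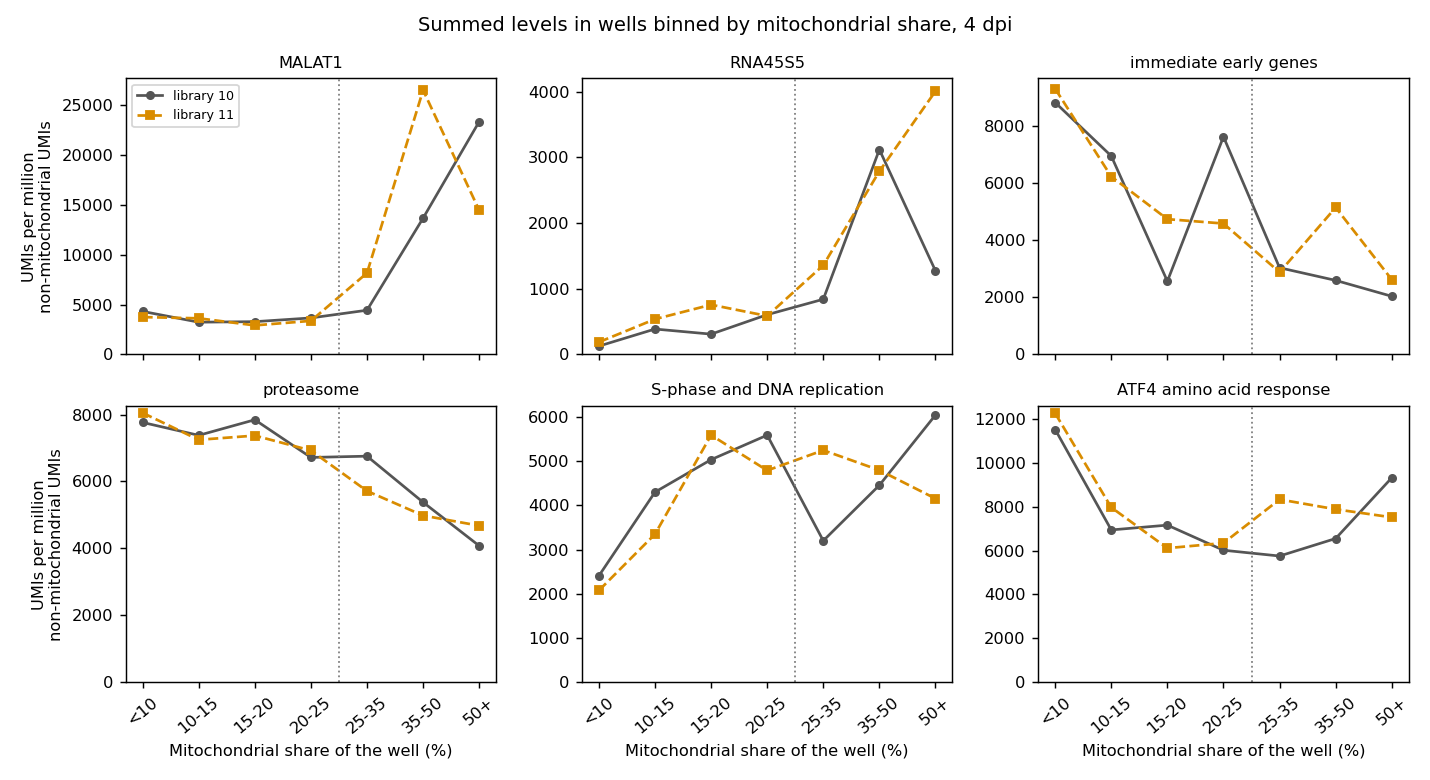
Summed level (UMIs per 1000000 non-mitochondrial UMIs, linear axes from 0) of MALAT1, RNA45S5 and 4 gene lists in wells binned by mitochondrial share (%), for library 10 (circles, solid line) and library 11 (squares, dashed line), with the 25% limit as a dotted line. MALAT1 stays between 2911 and 4310 CPM in the 4 bins under the limit, and S-phase genes rise and ATF4 genes fall mainly within the passing wells.

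Other long non-coding RNAs moved in both directions. Of 20 tested members of a list that holds nuclear long non-coding RNAs and hosts of small nucleolar RNAs, 5 rose and 7 fell, against 5.56% and 4.78% of all genes. The list was written as one of nuclear-retained long non-coding RNAs and is renamed here by what it holds. As written it did not rise as a whole, with a median log2 ratio of -0.15. KCNQ1OT1, the antisense RNA of the imprinted KCNQ1 domain, was at 1226 and 2152 CPM against 433 and 566 CPM (log2 ratio 1.72 ± 0.13). NEAT1, the scaffold of paraspeckles, was at 1870.3 and 1323 CPM against 573 and 580.4 CPM (1.46 ± 0.13), and MIR17HG, the host of a cluster of microRNAs that drive proliferation, at 168 and 143 CPM against 42.1 and 41.1 CPM (1.90 ± 0.27). HCG18 also rose (1.55 ± 0.28). The 7 that fell were SNHG1 (-0.71 ± 0.13), EPB41L4A-AS1 (-0.67 ± 0.17), SNHG8 (-0.62 ± 0.15), SNHG6 (-0.60 ± 0.15), ZFAS1, GAS5 and SNHG5, which host small nucleolar RNAs in their introns and whose spliced transcripts are known to be exported to the cytoplasm. Against passing wells matched by depth, NEAT1 did not pass the test (log2 ratio 0.29, adjusted p = 0.285), whereas MALAT1 (1.96, adjusted p = 6.71e-10) and KCNQ1OT1 (0.91, adjusted p = 0.00299) did. KCNQ1OT1 also had 1.47 and 2.37 UMIs per well in wells of 500 or fewer genes, against 10.7 and 14.1 in high-mitochondrial wells, and whether RNA from outside the cell adds to it was not tested.

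Splicing factors divided as well, with 6 higher and 6 lower of 37 tested. PNISR (1.19 ± 0.19), NKTR (0.95 ± 0.19), SRSF10 (0.76 ± 0.15) and RBM25 (0.70 ± 0.14), which code for arginine and serine rich proteins of nuclear speckles or the spliceosome, were higher. RSRC2 (-1.37 ± 0.18), TRA2B (-1.08 ± 0.16), SRSF3 (-1.01 ± 0.14) and SRSF6 (-0.59 ± 0.16) were lower. SRSF3 was at 357 and 395 CPM in the high-mitochondrial wells against 752 and 766 CPM, and RBM25 at 573 and 582 CPM against 362 and 351 CPM.

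Immediate early genes, which are transcribed within minutes of a stimulus and whose messenger RNAs are short-lived, had the most members that fell of the 39 gene lists. Of 39 tested members 17 were lower and none higher, with a median log2 ratio of -1.23 (-1.18 with members at 0 UMIs set to their bound), beside -0.04 over all genes. FOS, a subunit of the transcription factor AP-1, was at 57.3 and 114 CPM in the high-mitochondrial wells and 369 and 371 CPM in the passing wells (log2 ratio -2.14 ± 0.24, adjusted p = 4.46e-05). JUN, its partner, was at 159 and 93.8 CPM against 306 and 345 CPM (-1.35 ± 0.23), and ATF3, a stress-induced relative, at 92.6 and 178 CPM against 373 and 398 CPM (-1.54 ± 0.22). EGR1, a zinc finger transcription factor, was at 61.8 and 168 CPM against 629 and 608 CPM (-2.47 ± 0.24). RHOB, a small GTPase, had 10 and 8 UMIs against 1212 and 795 (-2.83 ± 0.27), and GADD45B, a stress sensor, had 2 and 2 against 419 and 365 (-3.63 ± 0.46). For each of these 6 genes both high-mitochondrial sums lay below both passing sums, which adds little to the calls because they were made from these same sums.

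The summed immediate early genes were led by some wells of very high level. For EGR1 a single passing well held 894 of the 2164 UMIs in library 10 and another 523 of the 2013 in library 11. Without these wells its pooled ratio of passing to high-mitochondrial wells went from 5.43 to 3.64. A passing well held a median of 26.6 and 33.0 UMIs of the list per 10000 with a maximum of 572 and 519, and a high-mitochondrial well held a median of 18.7 and 22.2 with a maximum of 319 and 291. The medians of wells thus differed less than the sums, which were 6996 and 7046 CPM in the passing wells and 2641 and 3439.8 CPM in the high-mitochondrial wells. The level was also uneven along the mitochondrial share. In library 10 the list summed to 8828, 6954, 2566 and 7628 CPM in the 4 bins of passing wells from low to high share, and to 3038, 2595 and 2038 CPM in the 3 bins above the limit. In library 11 it summed to 9309, 6233, 4741 and 4588 CPM below the limit and to 2881, 5150 and 2625 CPM above it. With the limit at 20%, which moves 22 and 27 wells, the log2 ratio of FOS reversed, as given in the closing section.

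The promoters of these genes were read for 2 elements known to serve such induction. The cyclic AMP response element TGACGTCA, which reads the same on both strands, was in 3 of the 28 immediate early genes with a promoter in the table (RefSeq, GRCh38.p14, 250 bases before to 50 after the start site), namely DUSP1, JUND and PPP1R15A, and in 1.85% of 35116 promoters. The CArG box, bound by serum response factor, was in 2 of the 28 and in 1.29% of all. The matches are shown for 3 genes that fell, with the element in capitals.
DUSP1, chr5:172771302-172771331, minus strand: ggcagggcgggTGACGTCAccgccccgtca
PPP1R15A, chr19:48872352-48872381, plus strand: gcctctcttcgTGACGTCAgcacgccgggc
EGR1, chr5:138465364-138465393, plus strand: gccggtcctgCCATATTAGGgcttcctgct
DUSP1, a phosphatase of MAP kinases, had a log2 ratio of -1.73 ± 0.40, and PPP1R15A, which restores translation after stress, of -2.01 ± 0.24. They are named here for their promoters after their values were seen. A match is a description of the letters and not of binding.

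Other stress genes were lower as well. Of 23 heat shock genes tested 9 were lower and none higher (median log2 ratio -0.87). HSPA1A, an inducible HSP70, had 1 and 1 UMIs in the high-mitochondrial wells and 137 and 252 in the passing wells, a pooled ratio of passing to high-mitochondrial wells of 12.1 with an exact 95% interval of 3.34 to 101 for counting error. A single passing well held 81 of the 137 and another 210 of the 252, and without these 2 wells the pooled ratio was 3.10 and the call was lost (log2 ratio -1.65 ± 0.87, adjusted p = 0.24). HSPA1B is nearly identical to HSPA1A, so that the counting could split reads between them, and its call was lost as well (-0.998, adjusted p = 0.318). BAG3, a cochaperone of HSP70, had 0 and 2 UMIs against 132 and 186. The metallothionein MT2A, which binds zinc and copper, was at 371 and 267 CPM against 1280.2 and 819 CPM (log2 ratio -1.71 ± 0.15), and MT1E and MT1X fell too (-1.92 ± 0.35 and -1.73 ± 0.31), 3 of 6 tested in the list. A few wells led these sums: the metallothioneins had a median of 3.63 and 4.00 UMIs per 10000 in the high-mitochondrial wells and 4.69 and 4.76 in the passing wells, where single wells reached 301 and 262.

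Genes of the ATF4 response, which is induced by lack of amino acids and by stress of the endoplasmic reticulum or mitochondria, were lower in 11 of 33 tested members and higher in 1. DDIT4, an inhibitor of mTORC1, had 1 and 5 UMIs against 238 and 244 (log2 ratio -2.35 ± 0.51). The pseudokinase TRIB3 was at 119 and 252 CPM against 352 and 554 CPM (-1.31 ± 0.18), and the transcription factor DDIT3, also called CHOP, at 61.8 and 59.2 CPM against 165 and 191 CPM (-1.55 ± 0.26). The 1 member that rose was SLC1A5, a glutamine transporter, at 2175 and 1797 CPM against 1264 and 1167 CPM (0.70 ± 0.11). Of 26 chaperones and unfolded protein response genes 5 were lower, among them XBP1 (-1.31 ± 0.26), HERPUD1 (-1.35 ± 0.24) and DNAJB9 (-2.79 ± 0.61). Of 36 redox and iron genes 7 were lower, with the ferritin chains FTH1 at 2338 and 2078 CPM against 2992 and 3120.1 CPM (-0.47 ± 0.11) and FTL at 1037 and 1002 CPM against 1608 and 1536 CPM (-0.62 ± 0.12), and with TXNIP, an inhibitor of thioredoxin, at 304 and 222 CPM against 764 and 857 CPM (-1.61 ± 0.17).

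Among nuclear genes for the respiratory chain, ATP synthase and the mitochondrial ribosome none was called higher. Of 37 nuclear subunits of complex I tested 1 was lower, NDUFA12 (-0.78 ± 0.23), and none was higher. Of 26 subunits of complexes II to IV and cytochrome c 3 were lower. CYCS, cytochrome c, was at 688 and 637 CPM in the high-mitochondrial wells and 1343 and 1160.2 CPM in the passing wells (log2 ratio -0.92 ± 0.13, adjusted p = 2.54e-04), UQCRFS1, the Rieske protein of complex III, at 234 and 183 CPM against 385 and 345 CPM (-0.81 ± 0.18), and SDHB, the iron-sulfur subunit of complex II, at 83.8 and 49.4 CPM against 165 and 168 CPM (-1.31 ± 0.27). Of 17 subunits of ATP synthase 2 were lower, ATP5O (-0.57 ± 0.16) and ATP5G3 (-0.64 ± 0.19). Of 76 mitochondrial ribosomal proteins 4 were lower (median log2 ratio -0.43), led by MRPL1 (-1.46 ± 0.34). Over all genes tested 4.78% were called lower. The shares of complex I (2.70%) and of the mitochondrial ribosome (5.26%) were below or near that.

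The genes that copy and transcribe mitochondrial DNA were lower in 4 of 28 tested. TFAM, which packs and transcribes mitochondrial DNA, was at 88.2 and 69.1 CPM against 159.6 and 147 CPM (log2 ratio -0.96 ± 0.25), and TFB2M, the transcription factor that opens its promoters, at 35.3 and 29.6 CPM against 99.4 and 96.6 CPM (-1.59 ± 0.35). SSBP1, the single-strand binding protein (-0.76 ± 0.17), and SLIRP, which stabilises mitochondrial messenger RNAs (-0.62 ± 0.18), were the others. Of 33 import genes and chaperones 2 were higher, the protease SPG7 (1.90 ± 0.33) and the chaperone TRAP1 (0.68 ± 0.21), and TOMM34 was lower (-0.90 ± 0.27). These shares, 6.06% and 3.03%, stand beside 5.56% and 4.78% of all genes. Among 25 genes of mitochondrial dynamics and mitophagy, PARK2, the ubiquitin ligase parkin, was higher at 115 and 114 CPM against 31.4 and 34.7 CPM (1.79 ± 0.29), as was PHB, a scaffold protein of the inner membrane (0.55 ± 0.16). The autophagy receptor SQSTM1 was lower at 225 and 326 CPM against 774 and 919 CPM (-1.63 ± 0.16), as were MAP1LC3B (-1.84 ± 0.23) and TAX1BP1 (-0.57 ± 0.17). The TCA cycle and fatty acid oxidation list had 1 lower of 35 (2.86%), below the share of all genes.

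The proteasome, which degrades ubiquitinated proteins, was lower in 11 of 38 tested subunits and higher in none. Its summed level was 5625 and 5296 CPM in the high-mitochondrial wells and 7583 and 7575 CPM in the passing wells. PSMD6, a subunit of the lid, was at 52.9 and 49.4 CPM against 147 and 167 CPM (log2 ratio -1.61 ± 0.28), followed by PSMC6 (-0.99 ± 0.24), PSMC5 (-0.95 ± 0.28) and PSMA5 (-0.94 ± 0.21). By mitochondrial share the list held between 6717 and 8049 CPM in the bins of passing wells and between 4077 and 6755 CPM above the limit, and only the bin of 25% to 35% in library 10 lay within the range of the passing bins. Per well, the medians were 49.8 and 49.3 UMIs per 10000 in the high-mitochondrial and 72.1 and 72.2 in the passing wells.

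Cytosolic ribosomal proteins were near the level of all genes, with 7 higher and 4 lower of 79 tested and a median log2 ratio of -0.03. RPL41 (0.60 ± 0.10), RPS19 (0.58 ± 0.10), RPL29 (0.47 ± 0.12) and RPS3 (0.38 ± 0.11) were among those that rose, and RPLP0 (-0.43 ± 0.12), RPS13 (-0.42 ± 0.10) and RPL18 (-0.39 ± 0.12) were among those that fell. Many of these genes have processed pseudogenes with which they share reads. Of 34 translation factors 9 were lower and 1 higher. EIF4G2 was at 1019 and 1032 CPM against 1848 and 1781 CPM (-0.82 ± 0.12) and EIF1, which selects the start codon, at 657 and 779.9 CPM against 1306 and 1275 CPM (-0.85 ± 0.13), whereas EEF2, the factor of translocation, rose to 1394 and 1348 CPM from 1015 and 1015 CPM (0.43 ± 0.11). Ribosome biogenesis had 2 higher, RRP1 (1.18 ± 0.32) and TCOF1 (1.02 ± 0.25), and 1 lower, NPM1 (-0.37 ± 0.11), of 45.

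Targets of Wnt signaling, the pathway that drives intestinal stem cells and is active in SW480 through loss of APC, were higher in 7 of 28 tested and lower in none. NKD1, a feedback inhibitor of the pathway, was at 1054 and 1130.3 CPM in the high-mitochondrial wells and 425 and 544 CPM in the passing wells (log2 ratio 1.18 ± 0.13, adjusted p = 2.65e-05). NOTUM, a secreted enzyme that inactivates Wnt ligands, was at 1142 and 923 CPM against 551 and 439 CPM (1.06 ± 0.12), and AXIN2, a scaffold of the destruction complex, at 415 and 281 CPM against 191 and 188 CPM (0.88 ± 0.18). The transcription factor PROX1 (0.75 ± 0.16) and APCDD1 (0.48 ± 0.14) were higher too, and the stem cell factor ASCL2 was not called (0.24 ± 0.26, adjusted p = 0.601). A high-mitochondrial well held a median of 73.7 and 65.4 UMIs of the list per 10000, against 45.7 and 45.0 in a passing well. In absolute counts the list was at 61.4 and 40.5 UMIs per high-mitochondrial well and 119 and 91.2 per passing well.

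Among Notch genes the ligand JAG2 (1.26 ± 0.20) and the receptor NOTCH1 (0.91 ± 0.27) were higher and the target HES1 was lower, at 30.9 and 59.2 CPM against 113 and 86.4 CPM (-1.17 ± 0.35), of 16 tested. The call of HES1 was lost without the deepest high-mitochondrial well of each plate (-1.05, adjusted p = 0.0671). It was also lost against passing wells matched by depth (-1.31, adjusted p = 0.0631) and against passing wells nearer to the limit (-0.36, adjusted p = 0.618). At matched depth JAG2 (0.95, adjusted p = 0.0612) and NOTCH1 (0.19, adjusted p = 0.806) were not called either. In the secretory lineage list of 13 tested genes, the trefoil peptide TFF3 (0.84 ± 0.21) and the mucin MUC5AC (1.59 ± 0.44) were higher. CHGB, a granin of endocrine cells, had no UMI in the high-mitochondrial wells and 42 and 60 in the passing wells, at least 2.12-fold lower. None of these calls in the secretory list was kept without the deepest high-mitochondrial well of each plate. For TFF3 a single high-mitochondrial well held 23 of the 54 UMIs in library 10. Without the leading well of each plate its pooled ratio went from 1.85 to 1.37.

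Genes of the S phase were higher in 10 of 54 tested and lower in 1, with a median log2 ratio of 0.43. E2F8, a repressor of the E2F family, had 5 and 7 UMIs against 26 and 21 (2.00 ± 0.58), and CLSPN, a mediator of the replication checkpoint, was at 66.2 and 83.9 CPM against 29.9 and 21.7 CPM (1.53 ± 0.35). EXO1 (1.41 ± 0.43), an exonuclease, and POLE (1.39 ± 0.36), the leading strand polymerase, were higher too. PCNA, the sliding clamp of replication, was lower, at 163 and 158 CPM against 265 and 235 CPM (-0.64 ± 0.20). Of 55 genes of G2 and mitosis 2 were higher, GTSE1 (1.29 ± 0.38) and ASPM (0.76 ± 0.21), and 5 were lower, among them HMMR (-1.58 ± 0.42), PTTG1 (-1.01 ± 0.27), UBE2S (-0.90 ± 0.19) and UBE2C (-0.89 ± 0.27). The proliferation markers MKI67 (0.53 ± 0.20, adjusted p = 0.0993) and TOP2A (0.46 ± 0.20, adjusted p = 0.153) were not called, but were called higher against passing wells matched by depth. Without the leading well of each plate the pooled ratio of ASPM went from 1.73 to 0.98.

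Few immune genes were measured well in these cells. Of 16 chemokines and cytokines tested, CXCL8, which attracts neutrophils, was lower, with 1 and 8 UMIs in the high-mitochondrial wells and 384 and 337 in the passing wells (log2 ratio -2.34 ± 0.46). IL10, an anti-inflammatory cytokine, was higher on 4 and 8 against 13 and 30 UMIs (2.15 ± 0.58, adjusted p = 0.0265). A gene of so few UMIs passes the filter on low counts more readily where it is high. The part of this in the call of IL10 was not tested. CXCL1 went in opposite directions on the plates, at 17.6 and 54.3 CPM against 59.9 and 23.3 CPM. Of 33 tested genes in a list of interferon-stimulated genes and regulators 4 were higher, XAF1 (1.98 ± 0.24), IFI6 (1.43 ± 0.36), the regulator IRF3 (1.35 ± 0.28) and the double-stranded RNA kinase EIF2AK2 (1.05 ± 0.27). B2M, the light chain of MHC class I, was at 238 and 202 CPM against 433 and 382 CPM (-0.89 ± 0.17), and HLA-B was lower too (-1.19 ± 0.36), 2 of 15 tested. Of 22 NF-kB genes 2 were lower, TNFAIP3 with 1 and 1 UMIs against 126 and 136, and RELB (-1.82 ± 0.56).

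Apoptosis regulators had 4 higher and 2 lower of 44 (9.09% and 4.55%, beside 5.56% and 4.78% of all genes). CFLAR, an inhibitor of caspase 8 (1.15 ± 0.21), XIAP, an inhibitor of effector caspases (0.67 ± 0.19), CASP2 (0.86 ± 0.24) and DFFA, the inhibitor of the caspase-activated DNase (1.36 ± 0.33), were higher, and MCL1, a short-lived survival protein, was lower (-0.89 ± 0.26). None of these 4 higher genes was called against passing wells matched by depth, where CFLAR was at 0.41 (adjusted p = 0.444). Against passing wells nearer to the limit CFLAR was called (1.09, adjusted p = 0.00207). CFLAR also had 0.222 and 0.352 UMIs per well in wells of 500 or fewer genes, against 1.65 and 1.42 in high-mitochondrial wells. Whether RNA from outside the cell adds to CFLAR was not tested. CTSD, a lysosomal protease, was at 494 and 578 CPM against 187 and 227 CPM (1.37 ± 0.15, adjusted p = 3.70e-05), and CTSB was higher too (0.53 ± 0.15). Of the 37 autophagy and lysosome genes tested 5 were lower, among them ATG5 (-1.63 ± 0.46) and the proton pump subunit ATP6V1E1 (-1.34 ± 0.34). Among 25 p53 targets 2 were lower, including GADD45A at 432 and 360.3 CPM against 844 and 627 CPM (-0.89 ± 0.14). The hypoxia and glycolysis list had 4 lower of 37, among them SLC2A3 (-1.41 ± 0.36), VEGFA (-1.25 ± 0.33) and BHLHE40 (-1.11 ± 0.32), whereas GAPDH was at 9365 and 9221 CPM against 8381 and 8426 CPM (adjusted p = 0.341). In cholesterol and fatty acid synthesis SREBF1 was higher (1.18 ± 0.32) and HMGCS1 was among the lower genes (-2.21 ± 0.57), of 32 tested.

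Of the cytoskeleton and surface genes, S100 proteins and annexins were lower in 7 of 18 tested and higher in none. ANXA2, which binds membrane phospholipids, was at 529 and 479 CPM against 1079.9 and 977 CPM (-1.03 ± 0.13), with ANXA1 (-1.23 ± 0.28) and ANXA5 (-1.07 ± 0.18) also lower. The intermediate filament VIM had 4 and 7 UMIs against 348 and 407 (-2.12 ± 0.36). The actin crosslinkers ACTN4 (0.89 ± 0.12) and ACTN1 (0.52 ± 0.16) rose, and 6 of 31 actin and myosin genes fell, among them ZYX (-1.02 ± 0.26), MYL12B (-0.79 ± 0.15), MYL12A (-0.73 ± 0.18) and EZR (-0.71 ± 0.18). ACTB itself was at 1809 and 1575 CPM against 2115 and 1901 CPM (adjusted p = 0.15). Of 29 keratins and adhesion genes DSG2 was higher (0.65 ± 0.19) and KRT80 (-2.16 ± 0.28), KRT10 (-1.23 ± 0.28), CLDN4 (-1.05 ± 0.24) and JUP (-0.87 ± 0.20) were lower. Of 23 HMG proteins and histone variants 4 were lower, H3F3B (-1.15 ± 0.12), HIST1H2BK (-1.41 ± 0.27), H1FX (-0.84 ± 0.19) and H2AFZ (-0.47 ± 0.14).

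The passing wells were not alike, and some of these differences depended on which of them served as the reference. Passing wells under 10% mitochondrial share, 53 and 60 in number, held 11519 and 12255 CPM of ATF4 genes, 126874 and 124393 CPM of cytosolic ribosomal proteins and 2407 and 2075 CPM of S-phase genes. Passing wells of 20% to 25% held 6017 and 6344, 184482 and 184401, and 5586 and 4788 CPM. When the high-mitochondrial wells were compared with passing wells of 15% to 25% alone, a reference chosen after the data had been seen, 432 genes (5.09%) were higher and 398 (4.69%) lower of 8487 tested. Of the 567 higher and 486 lower genes of the first comparison that were tested, 567 and 453 had the same sign and 330 and 167 were called again.

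Against this nearer reference the ATF4 list had none called (median log2 ratio 0.01), and neither had the metallothioneins, the chaperones of the unfolded protein response, the NF-kB list, the cholesterol list or the secretory lineage. Immediate early genes were lower in 9 of 31 (median -0.51), with 8 of the 17 called again and ATF3 not called (-0.68, adjusted p = 0.0586). Heat shock genes were lower in 3 and higher in 1 of 18 (median -0.43), with 2 of the 9 called again. None of the calls among p53 targets and hypoxia genes was kept (GADD45A -0.05, adjusted p = 0.889), and of the 4 histone genes H2AFZ was kept, whereas H3F3B was at -0.22 (adjusted p = 0.336), HIST1H2BK at -0.59 (adjusted p = 0.282) and H1FX at -0.28 (adjusted p = 0.486). Counted anew, however, 5 of 31 hypoxia and glycolysis genes and 6 of 21 HMG and histone genes were lower and none higher, beside 4.69% lower of all genes. Of 23 p53 targets 1 was higher and 1 lower. TRIB3 was then at a log2 ratio of 0.71 (adjusted p = 0.0962), DDIT3 at 0.01 (adjusted p = 0.992), MT2A at -0.19 (adjusted p = 0.564) and SQSTM1 at -0.17 (adjusted p = 0.654). S-phase genes had none higher and 5 lower of 50, and PCNA was at -1.35. Other groups became more distinct. Cytosolic ribosomal proteins were lower in 36 and higher in 1 of 78 (median -0.32), ATP synthase subunits lower in 9 of 17, complexes II to IV in 11 of 26, complex I in 6 of 37, and G2 and mitosis genes in 11 of 54. Called under both references and in the same direction were MALAT1 (1.95), KCNQ1OT1 (1.37), NEAT1 (1.20), RNA45S5 (1.82), NKD1 (0.73), NOTUM (0.81), CTSD (0.93), FOS (-2.01), EGR1 (-1.71), JUN (-1.06), RHOB (-1.87), GADD45B (-1.92), CXCL8 (-2.22), VIM (-1.66), CYCS (-0.84) and PSMD6 (-1.45).

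**Figure D3:**
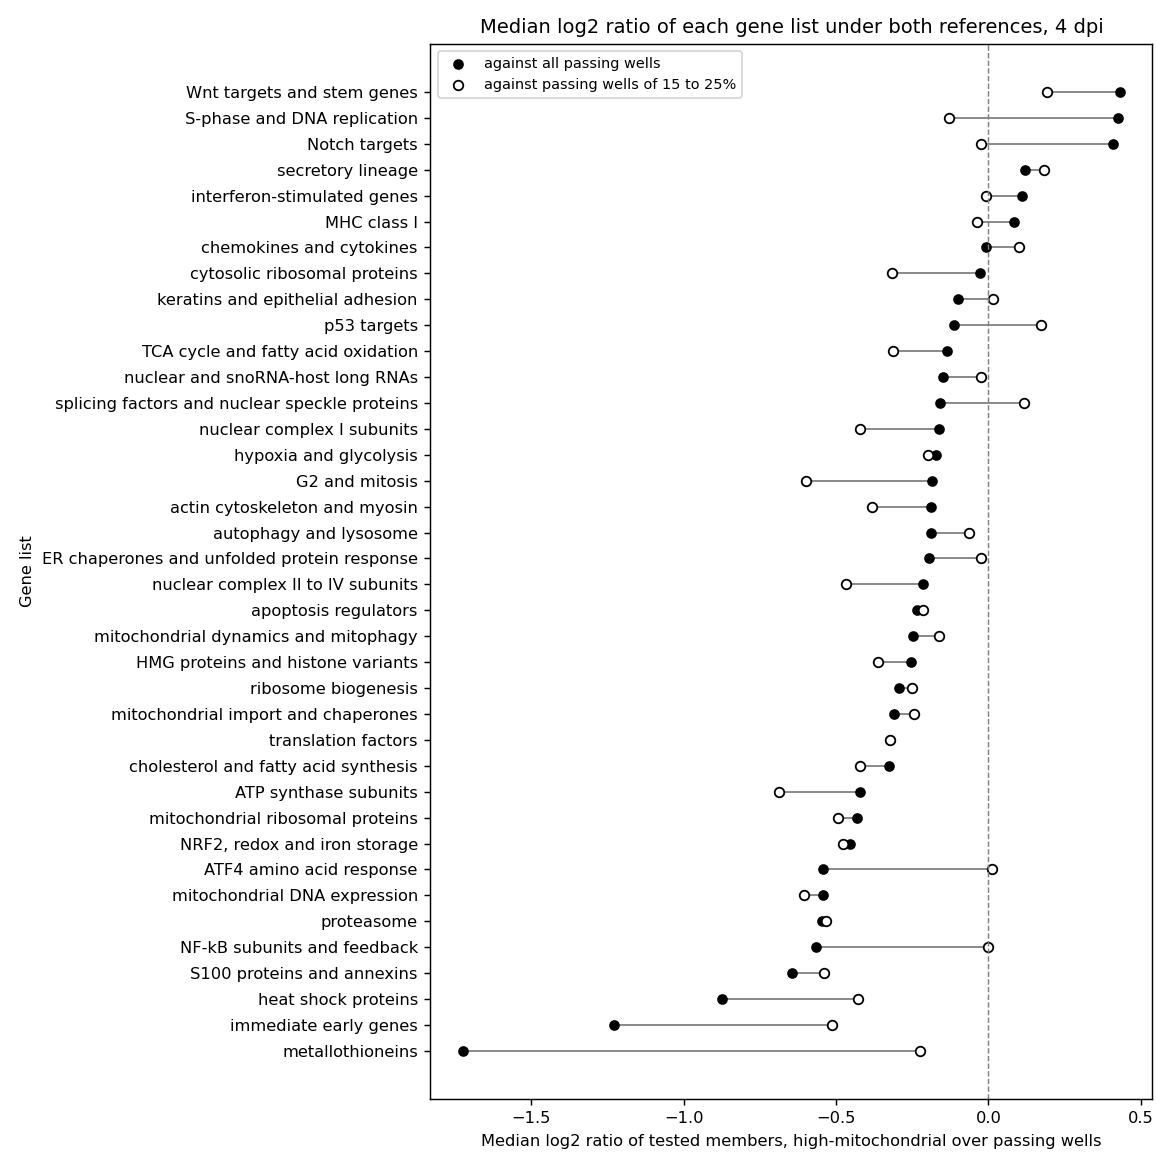
Median log2 ratio of the tested members of each gene list, high-mitochondrial over passing wells, against all passing wells (filled circles) and against passing wells of 15% to 25% mitochondrial share (open circles), joined by a grey line. ATF4 genes and NF-kB genes move to near 0 under the nearer reference and metallothioneins to -0.23, S-phase genes and Notch targets fall below it, and the proteasome hardly moves.

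Another reference was the passing wells closest in depth, 1 for each high-mitochondrial well. Of the 5028 genes tested against it, 130 (2.59%) were higher and 127 (2.53%) lower. Of the 425 genes called lower before that could be tested, 113 were called again. Immediate early genes were lower in 16 of 28 (median log2 ratio -1.52), with 14 of the 17 called again, and ATF4 genes were lower in 6 and higher in 1 of 30. The proteasome was lower in 1 of 36 (median -0.31) and heat shock genes in 1 of 13 (median -0.23). Cytosolic ribosomal proteins were lower in 6 and higher in 1 of 78, and Wnt targets higher in 2 of 19, namely NKD1 (0.99, adjusted p = 0.00617) and NOTUM (0.76, adjusted p = 0.0238). Genes of G2 and mitosis, with 5 and 11 lower under the references above, had 6 higher and none lower of 38 (median 0.39). MKI67 was at 1.29 (adjusted p = 0.0288) and TOP2A at 1.17 (adjusted p = 0.0337), so that the direction of these genes depended on the passing wells that served as the reference.

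High-mitochondrial wells were rarer at 1 dpi. Of 538 wells with more than 2000 genes 7 passed 25% (1.30%, exact 95% interval 0.525% to 2.66%), namely 2, 3 and 2 wells in libraries 6, 7 and 8, against 57 of 348 (16.4%, 12.6% to 20.7%) at 4 dpi. The intervals cover counting error only, and the shares per plate were 0.873%, 2.07% and 1.22% at 1 dpi and 16.6% and 16.2% at 4 dpi, without overlap. With 2 to 3 wells a plate, the comparison of genes was not made at 1 dpi. As a description, MALAT1 was at 8977, 8988 and 572 CPM in the summed high-mitochondrial wells of the 3 plates and at 2542, 2574 and 2412 CPM in their passing wells, and the library with 572 CPM had 15 UMIs of it.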

How the data were processed

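Single SW480 cells were measured by SORT-seq, a plate-based form of CEL-Seq2. The authors took well barcode and UMI from read 1, mapped read 2 (60 bases) to the human reference transcriptome with BWA (build hg38 per the labels, versions not given in the sources used here), and deposited, for each gene and well, the raw UMI count, with no filter and no normalization.

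ERCC rows were left out of totals, and wells were grouped as the report states. The 2 plates share 384 well barcodes, which are plate positions, and 0 wells had identical counts. UMIs of rows not starting with MT- were summed per plate and group (3499172 and 3318683 UMIs in passing, 227911 and 197683 in high-mitochondrial wells). They were tested with edgeR 4.0.16 in R 4.3.3 (limma 3.58.1; TMM, filterByExpr, quasi-likelihood test, two-sided, plate as a block, Benjamini-Hochberg), which leaves 1 residual degree of freedom. Both groups of a plate come from the same plate, which is why the plate is a block; deviations of the sums of a plate correlated at 0.111. No doublet caller was run. Errors are standard errors of the fit, and intervals are exact (95%, counting error only). DESeq2 1.42.0 was an alternative tool, and the test was checked on simulated data.

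Named are the 10 largest rises and falls among called genes of at least 50 UMIs moving alike on both plates, the extremes and up to 4 called members in each direction of 39 gene lists written from general knowledge, and anchor genes, though a few genes that this rule names are not reported here. The members, lists and tests were chosen with earlier results of these data known.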

Additional observations from a re-analysis of the deposited data

How the results depend on the processing

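Counts of genes higher and lower in the high-mitochondrial wells (614 and 527) became 1209 and 1296 with a 20% limit, 813 and 839 with 30%, 938 and 893 for 30% or more against under 20%, 1073 and 938 with more than 1000 genes a well, and 140 and 212 with more than 3000. They were 204 and 121 with wells thinned to 2000 UMIs (3989 genes tested), 130 and 127 with passing wells matched by depth (5028 tested), 465 and 998 with no filter on low counts, and 144 and 117 with DESeq2, which gave no adjusted p to 6845 genes. With mitochondrial UMIs in the library size they were 187 and 3323, and the median of all genes moved by -0.64 (log2), as follows from choosing wells by mitochondrial share. Scaled to spike-ins they were 21 and 9009, and the median moved by -1.68. That shift is measured: the summed high-mitochondrial wells held 0.322 and 0.289 times the non-mitochondrial UMIs per spike-in UMI of the passing wells. Beyond the smaller number of genes or wells tested, the cause was not tested. With no filter the share of calls that were higher was 31.8%, with more than 3000 genes 39.8%, with thinned wells 62.8%, and otherwise, scaling with mitochondrial or spike-in UMIs aside, it was within 10 points of the 53.8% reported.

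The fit with no replicate block, which drops the pairing by plate, gave 728 and 623. Within each plate alone, which allows no test, 614 of the 614 and 527 of the 527 genes kept their direction. Because the genes were called from these same plates, that agreement was largely set by the calling and is no separate support. TMM left out, DESeq2 size factors, equal weight of wells, nuclear copies left out, a minimum of 10 UMIs in each sum, the deepest 5% of wells left out, and, added after the data had been seen, leaving out the deepest high-mitochondrial well of each plate (596 and 544), the 2 high-mitochondrial wells of most RNA45S5 (836 and 774) or the 2 passing wells of most HSPA1A (619 and 512) kept both counts within 1.5 times.

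With the 20% limit the log2 ratio turned positive for FOS (0.29), DUSP1 (0.081), PCNA (0.48), NPM1 (0.14), ATP5G3 (0.11), H2AFZ (0.090), SNHG5 (0.087), RPL18 (0.074), RPLP0 (0.034) and RPS13 (0.084), and for ACTB (0.20), EEF1A1 (0.14), EPCAM (0.18) and CXCL1 (0.26), which were not called. Against passing wells of 15 to 25%, TRIB3 (0.71), DDIT3 (0.011), MT1E (0.21), RSRC2 (0.23), SRSF6 (0.12), SLC2A3 (0.073), TAX1BP1 (0.027), GAPDH (-0.17), MKI67 (-0.15), TOP2A (-0.030), ASCL2 (-0.27) and CXCL1 (0.70) turned. Among genes not called, the log2 ratio of ASCL2 also turned with equal weight of wells (-0.00171), matched depth (-0.22) and thinned wells (-0.27), and that of CXCL1 with 30% (0.11), 30% against 20% (0.16), more than 1000 (0.22) or 3000 genes (0.51) and without the deepest wells (0.21).

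Without the well of most UMIs of a gene on each plate, in the group where it was higher, the pooled level of 9 of the 169 called genes of the text moved by over 1.5 times. They were HSPA1A, HSPA1B, MT1E, MT1X, DCD, MTRNR2L8, LINC00276 and PRAP1, which kept their direction, and ASPM, whose ratio of both groups went from 1.73 to 0.98. A fit with the 1 dpi plates was not run, because none held 10 high-mitochondrial wells. With 227911 and 197683 UMIs over the high-mitochondrial wells, a gene with no UMI there can be bounded only at 7.05 CPM (3 counts over both plates), and genes of few UMIs were the ones whose ratios had the largest errors.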

Other observations

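The calls were also counted by gene type, with no test between types. By gene type in RefSeq, 67 of 385 tested long non-coding RNAs (17.4%) were higher and 14 lower, with a median log2 ratio of 0.61, and 25 of 150 transcribed pseudogenes (16.7%) were higher and 3 lower (median 0.89). Of 10344 protein-coding genes 489 (4.73%) were higher and 509 (4.92%) lower (median -0.07). Against passing wells matched by depth the medians were 0.29 over 88 long non-coding RNAs and 0.66 over 20 transcribed pseudogenes that could be tested. Genes of few UMIs pass the filter on low counts more readily where they are high, and the part of this in the class medians was not tested.

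Protein-coding genes that were higher lay in longer stretches of the genome than those that were lower, with a median span from start to end of 37.7 kb (quartiles 15.7 and 86.7 kb) against 21.9 kb (9.35 and 41.7 kb). The span of the protein-coding genes called in neither direction was 32.5 kb (13.2 and 78.0 kb), so that the lower genes stood further from it than the higher ones. The spans come from the RefSeq table and were not tested.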
